A study of Homo sapiens with 18 samples.

Results

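The genes described here are 10 enzymes and core partners of DNA methylation and of Polycomb repression, DNMT1, DNMT3A, DNMT3B, TET1, TET2, TET3, UHRF1, EZH2, SUZ12 and EED. They were chosen by symbol and not by any measured value, and they are 10 of the 40266 gene symbols in the table. All 10 passed the filter of at least 1 TPM, the length-scaled abundance of a transcript, in at least 3 libraries, TET1 through its Panc1 libraries, and were among the 16093 genes tested. RNA was sequenced from 18 libraries of human pancreatic ductal adenocarcinoma (PDAC) cells, 3 for each of 6 groups: parental, Holoclone and Paraclone cells of the line Panc1, and the same variants of the line Panc89. Panc1 came from a primary tumor and served as the mesenchymal-like model, whereas Panc89 came from a lymph node metastasis and served as the epithelial model. Holoclones are tight colonies regarded as rich in cancer stem cells (CSCs), and Paraclones are loose colonies of more differentiated cells. The labels name no treatment, and all cells were grown in the same medium. Holoclone and Paraclone cells of each line were each grown from a single cell, and the 3 libraries of a group came from separate passages. The spread within a group is therefore that between passages, and a difference between clones cannot be told apart from a difference between colony types.

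DNA methyltransferases place a methyl group on cytosine, mostly at CG dinucleotides, and promoter methylation keeps genes silent. DNMT1 copies the pattern onto the new strand after replication, guided by UHRF1, which recognises hemimethylated DNA, while DNMT3A and DNMT3B also methylate sites that carried no mark. TET1, TET2 and TET3 oxidise methylcytosine and so start its removal. EZH2 is the catalytic subunit of Polycomb repressive complex 2 (PRC2), which methylates lysine 27 of histone H3 (H3K27). For this methylation EZH2 needs SUZ12 and EED. Transcripts of DNMT1, UHRF1 and EZH2 are widely known to be abundant in dividing cells. The libraries measured RNA only; neither DNA methylation nor H3K27 methylation was measured.

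The genes lie on several chromosomes of GRCh38, and all are protein-coding in the GENCODE annotation. DNMT1 (chr19:10133342-10231286, minus strand) and UHRF1 (chr19:4903080-4962154, plus strand) share a chromosome, as do DNMT3A (chr2:25227855-25342590, minus strand) and TET3 (chr2:73984910-74108176, plus strand). DNMT3B lies at chr20:32762385-32809359, TET1 at chr10:68560337-68694487 and TET2 at chr4:105145875-105279816, all on the plus strand. EZH2 lies at chr7:148807257-148884321 on the minus strand, and SUZ12 at chr17:31937007-32001038 and EED at chr11:86201212-86278813 on the plus strand. The 250 bases before the transcription start are shown for 5 genes, because UHRF1, DNMT1 and EZH2 differed most between passages, SUZ12 differed between Holoclone and Paraclone cells of Panc1, and TET1 had the lowest level of the 10 genes. The sequences are from RefSeq on GRCh38.p14 and are printed in the direction of transcription, 5′ to 3′. Capitals mark 2 kinds of words on either strand, the E2F words TTTCCCGC, TTTCGCGC, TTTGCCGC and TTTGGCGC and the word CCAAT, which do not overlap in these genes.
UHRF1, chr19:4909251-4909500: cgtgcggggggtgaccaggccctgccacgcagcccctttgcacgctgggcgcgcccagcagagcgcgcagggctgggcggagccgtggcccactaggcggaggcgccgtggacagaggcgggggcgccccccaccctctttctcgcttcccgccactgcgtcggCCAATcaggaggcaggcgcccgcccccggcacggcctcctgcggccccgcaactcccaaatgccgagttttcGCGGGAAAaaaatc
DNMT1, chr19:10194954-10195203: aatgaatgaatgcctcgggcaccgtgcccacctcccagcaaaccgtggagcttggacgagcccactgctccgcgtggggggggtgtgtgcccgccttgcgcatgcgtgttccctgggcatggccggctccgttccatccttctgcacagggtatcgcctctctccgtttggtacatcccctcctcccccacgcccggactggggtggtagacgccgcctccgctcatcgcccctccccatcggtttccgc
EZH2, chr7:148884292-148884541: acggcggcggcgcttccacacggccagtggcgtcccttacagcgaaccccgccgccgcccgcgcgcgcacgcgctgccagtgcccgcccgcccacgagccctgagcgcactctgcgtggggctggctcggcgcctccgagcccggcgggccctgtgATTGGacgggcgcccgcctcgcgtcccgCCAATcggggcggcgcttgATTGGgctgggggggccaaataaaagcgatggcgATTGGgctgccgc
SUZ12, chr17:31936757-31937006: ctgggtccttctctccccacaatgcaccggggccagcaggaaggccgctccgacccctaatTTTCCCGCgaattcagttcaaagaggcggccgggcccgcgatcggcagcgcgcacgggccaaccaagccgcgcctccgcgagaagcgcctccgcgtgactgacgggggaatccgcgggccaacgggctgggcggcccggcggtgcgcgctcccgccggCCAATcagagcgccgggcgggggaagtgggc
TET1, chr10:68560087-68560336: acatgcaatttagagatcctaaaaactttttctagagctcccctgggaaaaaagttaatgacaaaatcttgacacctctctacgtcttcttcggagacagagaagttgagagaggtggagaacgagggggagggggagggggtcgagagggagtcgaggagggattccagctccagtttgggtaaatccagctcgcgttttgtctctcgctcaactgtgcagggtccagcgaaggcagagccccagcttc
In UHRF1, 1 E2F word read on the reverse strand stood 14 to 7 bases before the start, and in SUZ12 1 stood 189 to 182 bases before it. An E2F word occurred in 2.79% of all 35116 promoters of this length, and CCAAT in 32.01%. EZH2 held 4 CCAAT words, UHRF1, SUZ12 and EED held 1 each, and DNMT1, DNMT3A, TET1, TET2 and TET3 held neither kind of word. The window listed for DNMT3B began 17467 bases from the annotated main start and was not read. The number of CG dinucleotides was 38 in EZH2, 34 in SUZ12, 28 in UHRF1 and 21 in DNMT1, against a median of 11 over all promoters, and TET1 had 9. A word is a match of letters only, and no binding was measured.

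Per library, 12932 to 14199 genes reached 1 TPM, and 5.62% to 9.44% of the TPM fell on genes of the mitochondrial genome. The labels of the lines were checked against marker genes, and those of the Holoclone and Paraclone cells were not. VIM, an intermediate filament of mesenchymal cells, averaged 2465 to 4318 TPM in the Panc1 groups and at most 0.361 TPM in the Panc89 groups. The adhesion molecule CDH1 averaged at most 2.84 TPM in Panc1 and at least 75.3 TPM in Panc89. The other markers were mixed. Of 5 epithelial markers (CDH1, EPCAM, KRT8, KRT18 and KRT19), 3 were called higher and 1 lower in parental Panc89 than in parental Panc1 cells. Among Holoclone cells 3 were higher and 2 lower, and among Paraclone cells 2 were higher and 0 lower. Of 4 mesenchymal markers (VIM, CDH2, ZEB1 and FN1), 1 was higher and 2 lower in parental Panc89 cells. Among Holoclone cells 0 were higher and 3 lower, and among Paraclone cells 2 and 2. Of 10 markers of immune, endothelial, acinar and islet cells, 3 reached the filter (CD14, CDH5 and PECAM1), and INS was listed at 0 in every library. All 3 were called higher in parental Panc89 than in parental Panc1 cells, as were 27.5% of all genes. All 3 were called lower in Panc89 Holoclone than in Paraclone cells (13.3% of all genes) and than in parental cells (8.61%). The endothelial marker PECAM1 stood at 60.1 ± 6.12 TPM (SD, n = 3) in parental Panc89 cells, 4.54 ± 2.50 TPM in the Panc89 Paraclone cells and 0.856 ± 0.354 TPM in the Panc89 Holoclone cells. The part of these markers in the results was not tested. Libraries of the same group also differed in a list of 21 S phase genes, read as the median of the log2 deviations of these genes from their own means over all libraries. In Panc1 this S phase level spanned 1.20 log2 units among parental, 0.42 among Holoclone and 1.45 among Paraclone libraries. In Panc89 it spanned 0.30 among parental, 1.64 among Holoclone and 1.99 among Paraclone libraries. In each of the 4 groups of wide span, 1 library lay high. These were parental Panc1 replicate 2, Panc1 Paraclone replicate 1, Panc89 Holoclone replicate 1 and Panc89 Paraclone replicate 2. All results were therefore also computed without these 4 libraries, an alternative added after seeing the data. Because it removes the library farthest from the others, it narrows the spread, and its p-values are too small. Where only 1 of 2 compared groups loses a library, the fold change of a gene high in that library also shifts by construction.

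**Figure D1:**
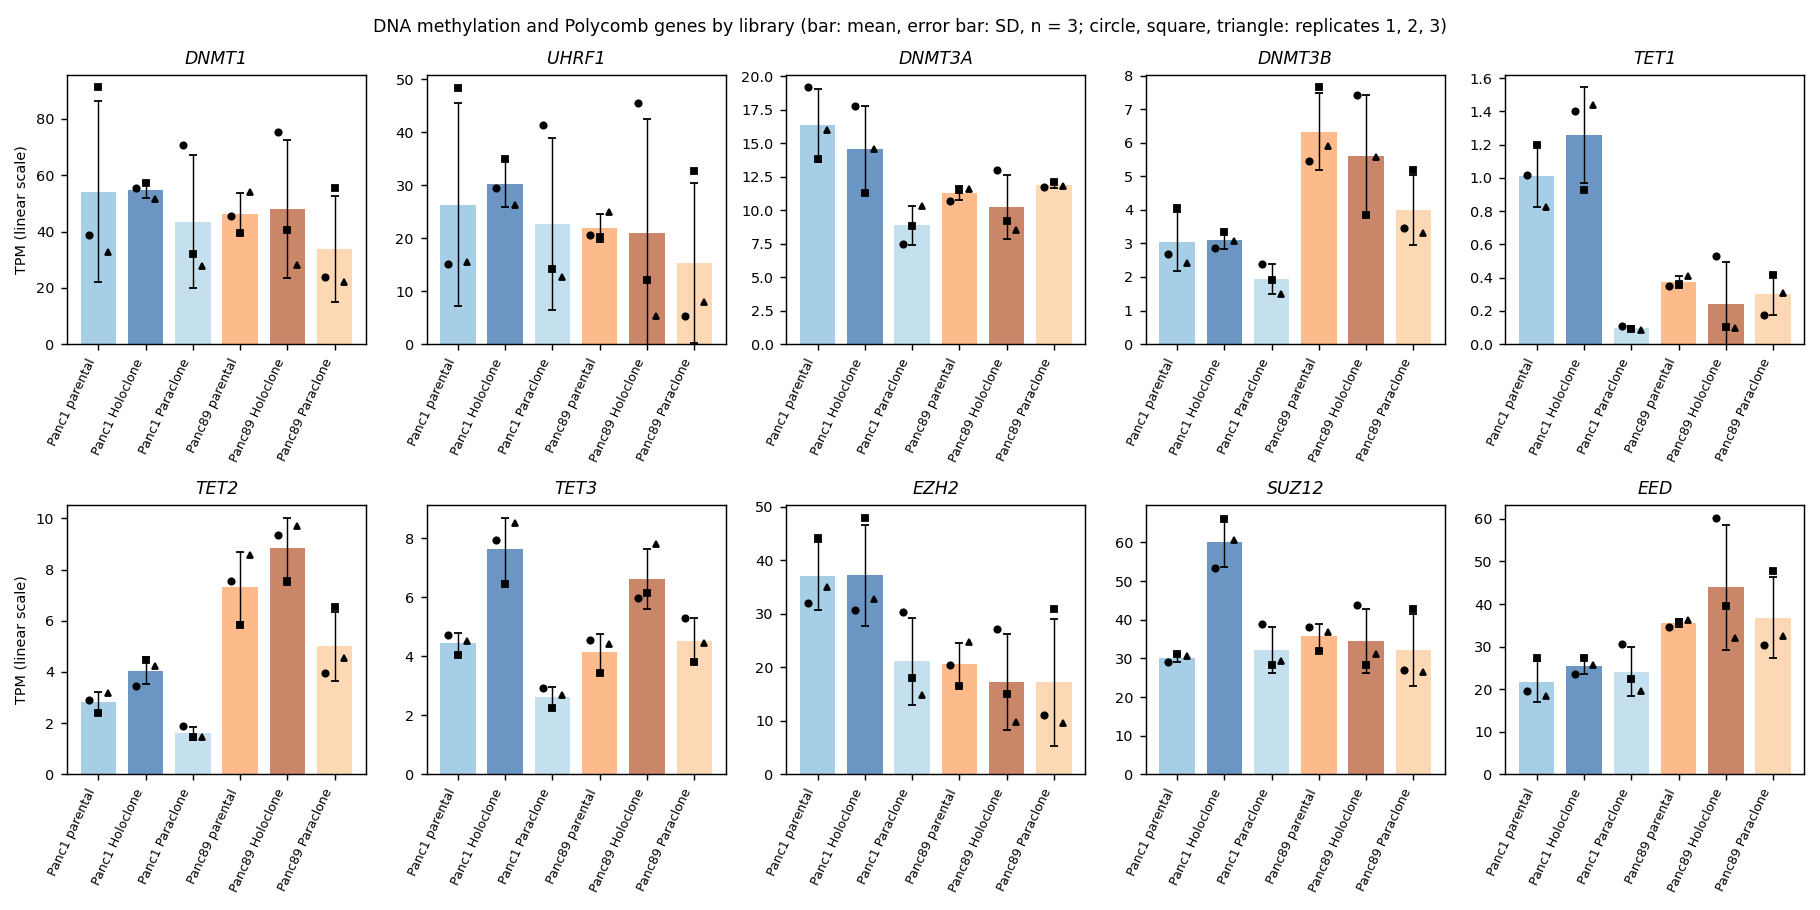
TPM (linear axis) of the 10 genes in the 18 libraries; bars are group means, error bars are SD (n = 3), and circles, squares and triangles are replicates 1, 2 and 3. For DNMT1 and UHRF1, 1 library stood far above the others in 4 groups (parental and Paraclone cells of Panc1, both clones of Panc89), while the Panc1 Holoclone cells stood apart from all other groups for SUZ12.

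In Panc1, 5 of the 10 genes were higher in Holoclone than in Paraclone cells, namely DNMT3A, TET1, TET2, TET3 and SUZ12, and none was lower. Of all tested genes 37.3% passed the same test, 27.4% higher and 9.97% lower. Over the 10 genes the fold changes had a median of 0.73 on the log2 scale, against 0.19 over all genes. Under upper quartile scaling, 4 of the 10 genes were higher, with medians of 0.50 over the 10 and 0.01 over all genes, and the calls over all genes changed from 4402 higher and 1604 lower to 2643 higher and 2512 lower. In Panc89, TET2 and TET3 were higher in Holoclone than in Paraclone cells and none of the 10 was lower, where 35.7% of all genes passed, 22.4% higher and 13.3% lower. The groups did not overlap for 7 of the 10 genes in Panc1 and for 2, TET2 and TET3, in Panc89, against 51.3% and 40.8% of all genes. The change between Holoclone and Paraclone cells differed between the lines for 4 genes, DNMT3A, TET1, TET3 and SUZ12, all with the smaller or the negative change in Panc89. Over all genes this difference passed for 35.1%, with 14.8% higher and 20.4% lower in Panc89. The Holoclone and Paraclone comparisons of a line and the difference between lines share their libraries. TET1 entered these counts only because parental and Holoclone libraries of Panc1, where it was high, reached the filter. With no filter on low values its adjusted p was 4.12e-05 in Panc1 and 0.000481 for the difference between lines.

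**Figure D2:**
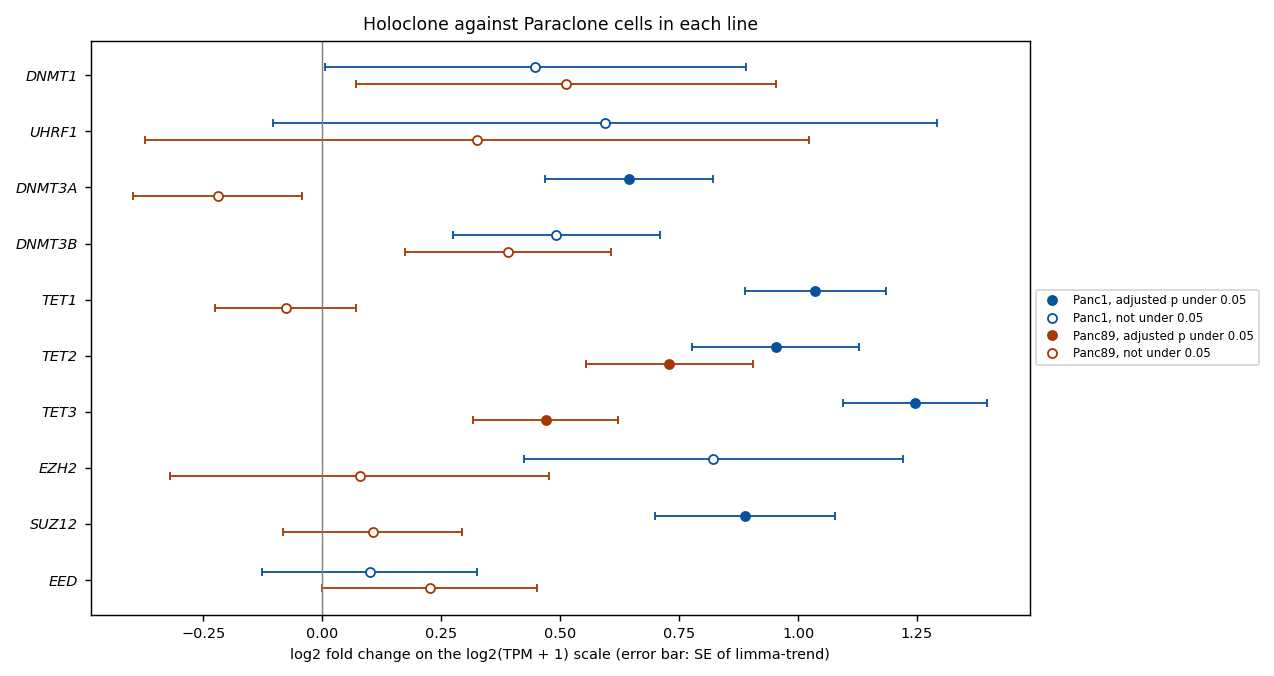
Log2 fold change of Holoclone against Paraclone cells (horizontal axis, log2(TPM + 1) scale) for the 10 genes in Panc1 and Panc89; bars are limma standard errors and filled points have an adjusted p under 0.05. In Panc1, 5 points are filled and all lie above 0, from 0.65 for DNMT3A to 1.25 for TET3, whereas in Panc89 only TET2 at 0.73 and TET3 at 0.47 are filled. TET1 passed the filter only through parental and Holoclone libraries of Panc1.

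Between the lines, DNMT3B, TET2 and EED were higher in Panc89 than in Panc1 in all 3 variants. Among parental cells 5 of the 10 genes passed, these 3 and the lower DNMT3A and TET1, where 66% of all genes passed, 27.5% higher and 38.5% lower. Among Holoclone cells 7 passed, with DNMT3A, TET1, EZH2 and SUZ12 lower in Panc89, where 65.8% of all genes passed, 29.3% higher and 36.4% lower. Among Paraclone cells 4 passed, all higher in Panc89 (DNMT3B, TET2, TET3 and EED), where 60.7% of all genes passed, 30.2% higher and 30.4% lower. In each of these comparisons the share of the 10 genes lay near or under that of all genes. TET1 was tested only because Panc1 libraries reached the filter. With no filter its adjusted p was 0.00273 among parental and 5.42e-05 among Holoclone cells.

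**Figure D3:**
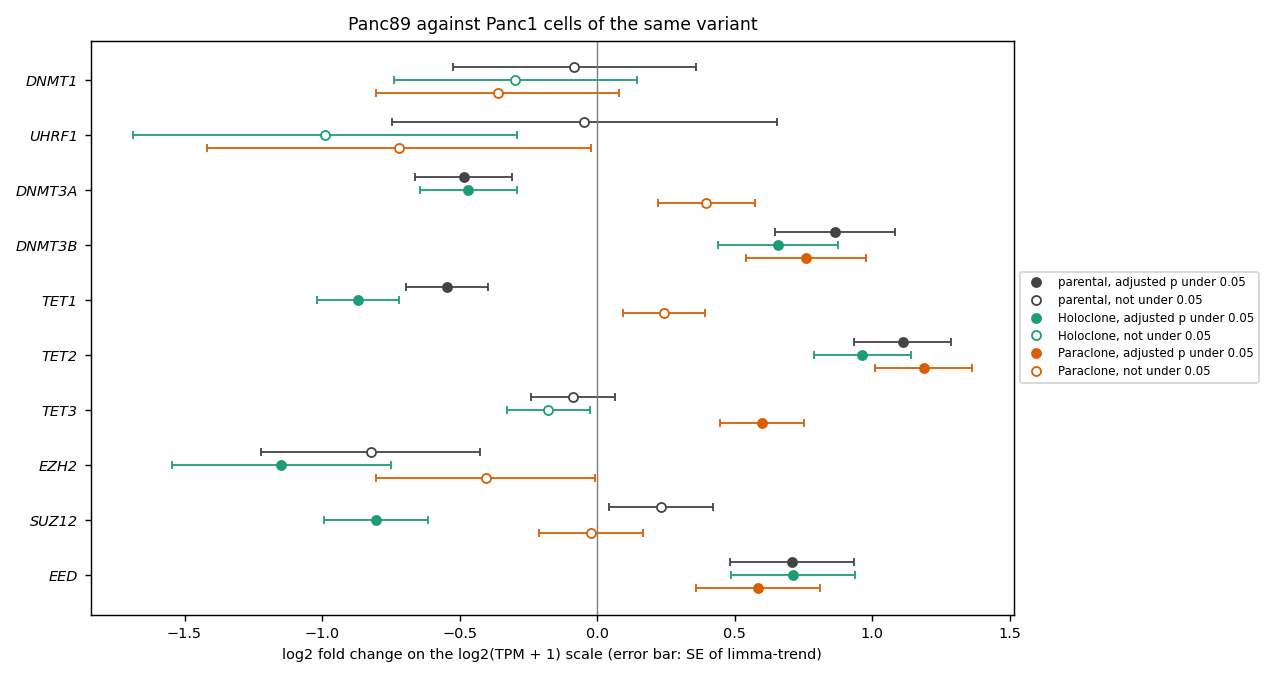
Log2 fold change of Panc89 against Panc1 cells (horizontal axis, log2(TPM + 1) scale) among parental, Holoclone and Paraclone cells; bars are limma standard errors and filled points have an adjusted p under 0.05. DNMT3B, TET2 and EED lie above 0 with filled points in all 3 variants, and the values of TET2 run from 0.96 to 1.19.

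Against the parental cells of their line, the Panc1 Holoclone cells had higher TET3 and SUZ12 (2 of 10 genes, with 10.9% of all genes passing, 5.87% higher and 5.06% lower). The Panc1 Paraclone cells had lower DNMT3A, TET1, TET2 and TET3 (4 of 10, with 28.6% passing, 7.31% higher and 21.3% lower). The Panc89 Holoclone cells had higher TET3 (1 of 10, with 24.7% passing, 16.1% higher and 8.61% lower). In the Panc89 Paraclone cells, 0 of the 10 genes passed limma's adjusted threshold, where 19.4% of all genes did (9.37% higher and 10% lower), and 2 genes, DNMT3B and TET2, had an unadjusted p under 0.05. The groups did not overlap for 3, 6, 1 and 2 of the 10 genes in the same order, against 30.3%, 42.9%, 41.2% and 35.8% of all genes. When the 4 libraries of high S phase level were left out, 5, 5, 3 and 6 of the 10 genes passed, and the share of all genes rose to 18.4%, 36.9%, 38.3% and 38.8%. These comparisons share the parental libraries of each line. TET1 was tested only because parental and Holoclone libraries of Panc1 reached the filter. With no filter its adjusted p in Panc1 Paraclone against parental cells was 3e-04.

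The maintenance enzyme DNMT1 and its guide UHRF1 varied widely between passages of the same cells, and neither passed the test in any comparison. DNMT1 stood at 38.7, 91.2 and 32.6 TPM in parental Panc1 cells, at 55.4, 57.4 and 51.5 TPM in Panc1 Holoclone cells and at 70.6, 32.0 and 27.9 TPM in Panc1 Paraclone cells. In Panc89 it stood at 45.6, 39.5 and 54.0 TPM in parental, 75.5, 40.7 and 28.2 TPM in Holoclone and 23.8, 55.5 and 22.0 TPM in Paraclone cells. The high library of DNMT1 was the library of highest S phase level in 6 of 6 groups, and the groups overlapped in every comparison. Within a group the highest library of DNMT1 exceeded the lowest by 1.11-fold to 2.80-fold, with a median of 2.53-fold. UHRF1 stood at 15.0, 48.4 and 15.5 TPM in parental Panc1, 29.4, 35.0 and 26.3 TPM in Panc1 Holoclone and 41.3, 14.1 and 12.6 TPM in Panc1 Paraclone cells. Its values in Panc89 were 20.6, 20.2 and 24.9 TPM in parental, 45.5, 12.1 and 5.23 TPM in Holoclone and 5.38, 32.7 and 8.00 TPM in Paraclone cells. UHRF1, too, was highest in the library of highest S phase level in 6 of 6 groups, and its libraries differed by up to 8.70-fold within the Panc89 Holoclone cells. Fewer cells in S phase and less of these transcripts per cell cannot be told apart in bulk RNA.

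Holoclone and Paraclone means of DNMT1 differed by 0.45 (SE 0.442, adjusted p = 0.471) in Panc1 and by 0.51 (SE 0.442, adjusted p = 0.404) in Panc89 on the log2 scale. UHRF1 differed by 0.59 (SE 0.698, adjusted p = 0.557) in Panc1 and by 0.32 (SE 0.698, adjusted p = 0.767) in Panc89. The S phase list was read beside them. Of its 21 genes, 21 in Panc1 and 19 in Panc89 had a higher mean in Holoclone than in Paraclone cells, with medians of 0.64 and 0.81, but 0 passed limma's adjusted threshold and 2 and 4 had an unadjusted p under 0.05. Of 20 genes of G2 and mitosis, 18 and 20 had a higher mean, with medians of 0.54 and 0.82, and 0 passed, where 0 and 1 had an unadjusted p under 0.05. The part of the cell cycle in the values of DNMT1 and UHRF1 was not tested. The standard errors of DNMT1 and UHRF1 are larger than those of the other genes, which lay between 0.148 for TET1 and 0.398 for EZH2. Without the 4 libraries of high S phase level, the Panc1 difference was 0.85 (adjusted p = 0.000971) for DNMT1 and 1.11 (adjusted p = 0.00394) for UHRF1. No Panc1 Holoclone library was left out, and the omitted Panc1 Paraclone library held the highest DNMT1 and UHRF1 values of its group. The Panc1 differences were therefore bound to grow. In Panc89, where both groups lost a library, the difference was then 0.55 (adjusted p = 0.0224) for DNMT1 and 0.26 (adjusted p = 0.5) for UHRF1. The share of all genes that passed rose as well without these libraries, to 49.3% in Panc1 and 47.7% in Panc89. UHRF1 was then also lower in Panc89 than in Panc1 among Holoclone cells, at -1.78 (adjusted p = 6.49e-05), against -0.99 (adjusted p = 0.225) with all libraries. There, too, only the Panc89 group lost a library, the one with its highest UHRF1 value, so the value was bound to fall.

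**Figure D4:**
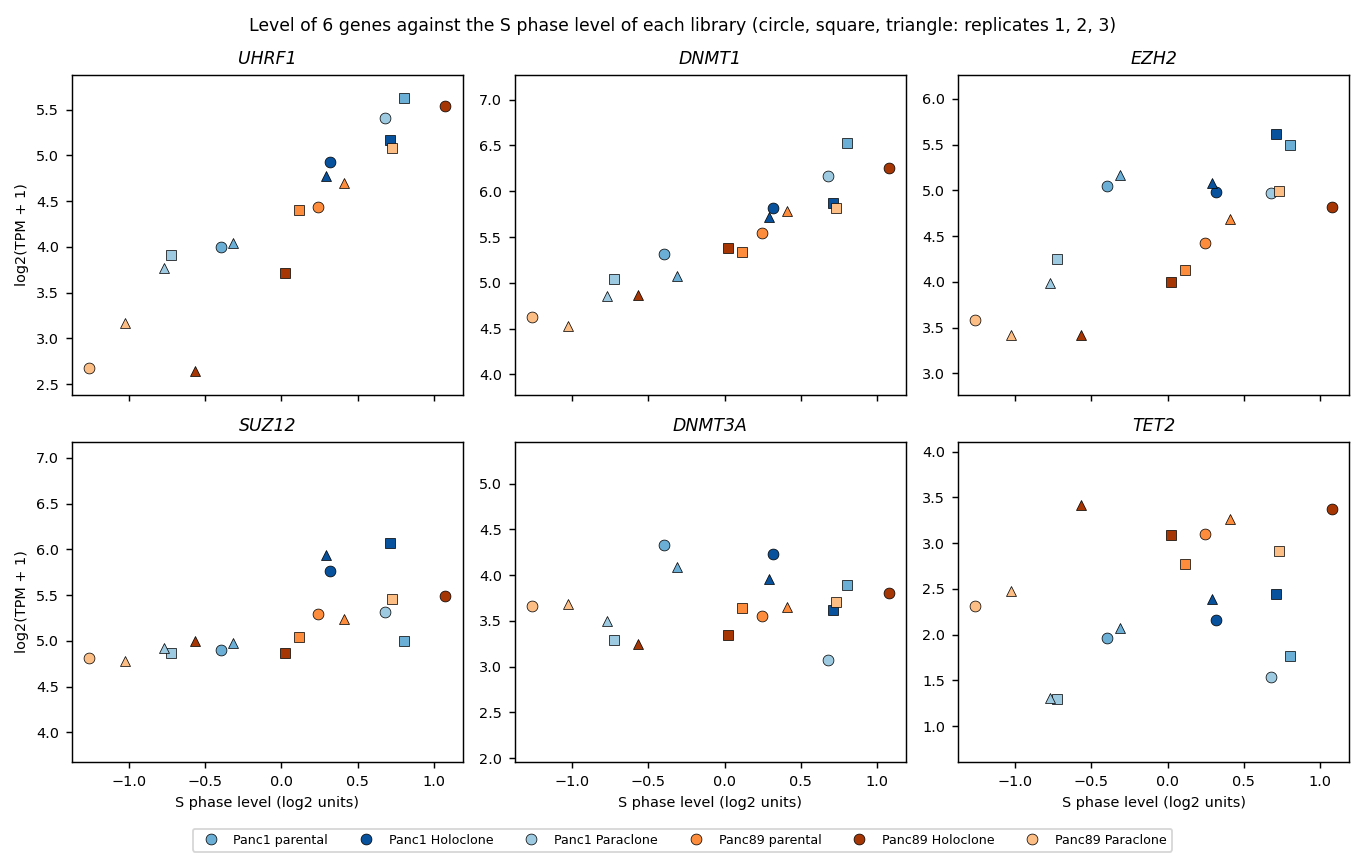
Level of 6 genes (vertical axis, log2(TPM + 1), same height in log2 units in each panel) against the S phase level of the library (horizontal axis, log2 units) in 18 libraries, coloured by group. UHRF1 and DNMT1 are highest in the library of highest S phase level of every group, whereas DNMT3A shares its highest library with the S phase level in 3 of 6 groups.

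Of the de novo enzymes, DNMT3A differed between the lines in its Holoclone against Paraclone change, and DNMT3B was higher in Panc89. DNMT3A was highest in parental Panc1 cells, at 19.2, 13.8 and 16.0 TPM, and in Panc1 Holoclone cells, at 17.8, 11.3 and 14.6 TPM. It was lowest in Panc1 Paraclone cells, at 7.45, 8.81 and 10.3 TPM, below every library of the other Panc1 groups. The Panc89 groups lay between, at 10.7, 11.5 and 11.6 TPM in parental, 13.0, 9.16 and 8.53 TPM in Holoclone and 11.7, 12.1 and 11.8 TPM in Paraclone cells. In Panc1, DNMT3A was higher in Holoclone than in Paraclone cells by 0.65 (SE 0.177, adjusted p = 0.00918) and lower in Paraclone than in parental cells, by -0.81 (adjusted p = 0.00299). In Panc89 the Holoclone cells differed from the Paraclone cells by -0.22 (SE 0.177, adjusted p = 0.366), and the difference between the lines was -0.87 (SE 0.25, adjusted p = 0.0137). The Panc1 call was lost under upper quartile scaling (0.42, adjusted p = 0.0829), under median-of-ratios scaling (0.39, adjusted p = 0.0803), with only the groups compared (adjusted p = 0.0539) and without Panc1 Holoclone replicate 1 (0.50, adjusted p = 0.0535).

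Between the lines, DNMT3A was lower in Panc89 among parental cells (-0.49, adjusted p = 0.0242) and among Holoclone cells (-0.47, adjusted p = 0.0289), and its value among Paraclone cells was 0.40 (adjusted p = 0.0638). Both lower calls were lost under both scalings, where adjusted p lay between 0.0813 and 0.179. Among parental cells the call was also lost without Panc1 parental replicate 1 (-0.37, adjusted p = 0.111) or Panc89 parental replicate 1 (-0.45, adjusted p = 0.0691). Among Holoclone cells it was lost without any 1 of Panc1 Holoclone replicates 1 and 3 and Panc89 Holoclone replicates 2 and 3, with adjusted p from 0.0679 to 0.148. The highest library of DNMT3A was that of highest S phase level in 3 of 6 groups.

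DNMT3B was higher in Panc89 than in Panc1 in each variant. It stood at 5.47, 7.66 and 5.90 TPM in parental Panc89 cells against 2.70, 4.06 and 2.42 TPM in parental Panc1 cells, without overlap. The Holoclone cells held 7.44, 3.84 and 5.58 TPM in Panc89 against 2.86, 3.35 and 3.08 TPM in Panc1, and the Paraclone cells 3.47, 5.19 and 3.32 TPM against 2.39, 1.92 and 1.49 TPM, again without overlap. The log2 fold changes were 0.86 (SE 0.217, adjusted p = 0.00241) among parental, 0.66 (adjusted p = 0.0144) among Holoclone and 0.76 (adjusted p = 0.00667) among Paraclone cells. Groups did not overlap for 73.3%, 69% and 64% of all genes in these comparisons. The Holoclone call was lost without Panc89 Holoclone replicate 1, the library of highest S phase level (0.46, adjusted p = 0.0769). Holoclone cells exceeded Paraclone cells by 0.49 (adjusted p = 0.089) in Panc1 and 0.39 (adjusted p = 0.181) in Panc89.

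All 3 TET dioxygenases were higher in Holoclone than in Paraclone cells of Panc1, with no overlap between the groups, as for 51.3% of all genes. TET1, which carries a CXXC domain that binds unmethylated CG, had the lowest level of the 10 genes in every group. It stood at 1.02, 1.20 and 0.822 TPM in parental Panc1 cells and at 1.40, 0.925 and 1.44 TPM in Panc1 Holoclone cells, but at only 0.108, 0.0889 and 0.0862 TPM in Panc1 Paraclone cells. In Panc89 it stood at 0.349, 0.359 and 0.412 TPM in parental, 0.532, 0.102 and 0.0968 TPM in Holoclone and 0.172, 0.416 and 0.309 TPM in Paraclone cells. In Panc1, TET1 differed by 1.04 (SE 0.148, adjusted p = 5.76e-05) between Holoclone and Paraclone cells and by -0.87 (adjusted p = 0.000447) between Paraclone and parental cells. TET1 passed the filter only through parental and Holoclone libraries of Panc1, the groups where it was high, so its place among the tested genes depended on these differences. With no filter on low values, adjusted p was 4.12e-05 for the first comparison and 3e-04 for the second. Because 1 is added before the logarithm, these values understate the change of a gene near 1 TPM, and with 0.1 added the Holoclone against Paraclone difference was 2.78. In Panc89 the difference was -0.08 (adjusted p = 0.738), and the lines differed by -1.11 (SE 0.209, adjusted p = 0.000709, or 0.000481 with no filter). The Panc89 Holoclone replicates 2 and 3 lay within the range of the Panc1 Paraclone cells. TET1 was lower in Panc89 than in Panc1 among parental (-0.55, adjusted p = 0.00417) and Holoclone cells (-0.87, adjusted p = 8.69e-05), with 0.00273 and 5.42e-05 when no filter was applied, since no Panc89 library reached 1 TPM. Among Paraclone cells the value was 0.24 (adjusted p = 0.169), and 0.99 (adjusted p = 0.0424) with 0.1 added.

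TET2, which lacks its own CXXC domain, was higher in Panc89 than in Panc1 in all 3 variants. It stood at 7.55, 5.85 and 8.57 TPM in parental Panc89 cells, 9.36, 7.51 and 9.70 TPM in Panc89 Holoclone and 3.95, 6.53 and 4.56 TPM in Panc89 Paraclone cells. In Panc1 it stood at 2.89, 2.41 and 3.20 TPM in parental, 3.46, 4.46 and 4.23 TPM in Holoclone and 1.90, 1.45 and 1.47 TPM in Paraclone cells. Every Panc89 library thus exceeded every Panc1 library of the same variant, and in each line every Holoclone library exceeded every Paraclone library. Panc89 was higher by 1.11 (SE 0.176, adjusted p = 4.24e-05) among parental, 0.96 (adjusted p = 0.000167) among Holoclone and 1.19 (adjusted p = 2.48e-05) among Paraclone cells. Holoclone cells exceeded Paraclone cells by 0.95 (adjusted p = 0.000538) in Panc1 and by 0.73 (adjusted p = 0.00422) in Panc89, and the lines differed in this change by -0.22 (SE 0.249, adjusted p = 0.525). With only the Panc89 groups in the fit, the Panc89 adjusted p was 0.0685.

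The TET2 level of the Panc1 Paraclone cells lay under that of the parental cells by -0.56 (adjusted p = 0.0273). This call was lost under both scalings (-0.43, adjusted p = 0.066 and -0.40, adjusted p = 0.0883) and without parental replicate 1 or 3 or Paraclone replicate 2 or 3, with adjusted p from 0.0754 to 0.0948.

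TET3, the third dioxygenase, had the largest Holoclone against Paraclone change of the 10 in Panc1 on the log2(TPM + 1) scale, although with 0.1 added TET1 had the larger change. It stood at 7.95, 6.44 and 8.51 TPM in Panc1 Holoclone cells, 4.74, 4.05 and 4.53 TPM in parental Panc1 cells and 2.94, 2.27 and 2.69 TPM in Panc1 Paraclone cells, in that order without overlap. In Panc89 it stood at 5.97, 6.14 and 7.81 TPM in Holoclone, 4.54, 3.43 and 4.43 TPM in parental and 5.32, 3.79 and 4.46 TPM in Paraclone cells, so that Holoclone cells again lay above the others. The difference of Holoclone from Paraclone cells was 1.25 (SE 0.152, adjusted p = 1.26e-05) in Panc1 and 0.47 (SE 0.152, adjusted p = 0.0246) in Panc89, and the lines differed by -0.78 (SE 0.215, adjusted p = 0.0108). The Panc89 call was lost under upper quartile (0.38, adjusted p = 0.0737) and median-of-ratios scaling (0.35, adjusted p = 0.105), with only the groups compared (adjusted p = 0.139), and without Holoclone replicate 3 (0.36, adjusted p = 0.11), Paraclone replicate 2 (0.37, adjusted p = 0.0831) or Paraclone replicate 3 (0.47, adjusted p = 0.0639). It was lost as well without the 4 libraries of high S phase level (0.43, adjusted p = 0.0559).

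Against the parental cells, TET3 was higher in Holoclone cells of both lines, by 0.66 (adjusted p = 0.00964) in Panc1 and by 0.57 (adjusted p = 0.0117) in Panc89. It was lower in Panc1 Paraclone cells, by -0.58 (adjusted p = 0.00956). The Panc1 Holoclone call was lost without Panc1 Holoclone replicate 3 (0.59, adjusted p = 0.0589) and with only the groups compared (adjusted p = 0.0516), and the Panc89 call without Panc89 parental replicate 2 (0.47, adjusted p = 0.0593), without Panc89 Holoclone replicate 3 (0.47, adjusted p = 0.0596) and with only the groups compared (adjusted p = 0.0636). The Paraclone call was lost under both scalings (-0.44, adjusted p = 0.0549 and -0.40, adjusted p = 0.0885) and without Panc1 Paraclone replicate 2 (-0.51, adjusted p = 0.0515). Between the lines TET3 was higher in Panc89 among Paraclone cells only by this test (0.60, adjusted p = 0.00293), and its values were -0.09 (adjusted p = 0.623) among parental and -0.18 (adjusted p = 0.321) among Holoclone cells. TET3 shared its highest library with the S phase level in 1 of 6 groups, fewer than any other of the 10 genes.

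All 3 PRC2 subunits passed the test between the Holoclone cells of the 2 lines, with EZH2 and SUZ12 lower and EED higher in Panc89. EZH2 passed in no other comparison. SUZ12 also passed in the other comparisons that involve the Panc1 Holoclone cells, and EED between the lines in the other variants. EZH2 stood at 32.0, 44.1 and 35.0 TPM in parental Panc1 and 30.7, 48.0 and 32.9 TPM in Panc1 Holoclone cells, and all of these libraries lay above the 30.3, 18.1 and 14.9 TPM of the Panc1 Paraclone cells. In Panc89 it stood at 20.5, 16.5 and 24.7 TPM in parental, 27.1, 15.0 and 9.69 TPM in Holoclone and 11.0, 30.9 and 9.68 TPM in Paraclone cells, and these groups overlapped. Its highest library was that of highest S phase level in 6 of 6 groups. EZH2 was lower in Panc89 than in Panc1 among Holoclone cells (-1.15, SE 0.398, adjusted p = 0.0187), and the value among parental cells was -0.82 (adjusted p = 0.0801), without overlap. The Holoclone call was lost without Panc1 Holoclone replicate 2 (-0.96, adjusted p = 0.0772) or Panc89 Holoclone replicate 3 (-0.82, adjusted p = 0.101). Holoclone exceeded Paraclone cells by 0.82 (adjusted p = 0.121) in Panc1 and 0.08 (adjusted p = 0.912) in Panc89. Without the 4 libraries of high S phase level, the Panc1 value was 1.10 (adjusted p = 0.00158) and that of parental Panc89 against parental Panc1 cells -0.69 (adjusted p = 0.0148). The omitted Panc1 Paraclone and parental Panc1 libraries held the highest EZH2 values of their groups, so both values shifted by construction.

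SUZ12, the subunit that holds the complex together, stood apart in the Panc1 Holoclone cells, at 53.4, 66.1 and 60.5 TPM. The other 5 groups lay between 26.5 and 43.8 TPM. They held 29.0, 31.1 and 30.5 TPM in parental Panc1, 38.9, 28.2 and 29.4 TPM in Panc1 Paraclone, 38.2, 32.0 and 36.9 TPM in parental Panc89, 43.8, 28.3 and 31.1 TPM in Panc89 Holoclone and 27.1, 42.8 and 26.5 TPM in Panc89 Paraclone cells. The Panc1 Holoclone cells exceeded the Panc1 Paraclone cells by 0.89 (SE 0.189, adjusted p = 0.00163) and the parental Panc1 cells by 0.96 (adjusted p = 0.00317). The Panc89 Holoclone cells lay -0.80 (adjusted p = 0.00145) from the Panc1 Holoclone cells, and they differed from the Panc89 Paraclone cells by 0.11 (adjusted p = 0.715). The difference between the lines in the Holoclone against Paraclone change was -0.78 (SE 0.267, adjusted p = 0.0326). It lost its call without a filter on low values (adjusted p = 0.055), with only the groups compared (adjusted p = 0.0747) and without any 1 of Panc1 Holoclone replicate 2 or 3, Panc1 Paraclone replicate 2 or 3, Panc89 Holoclone replicate 2 or 3 and Panc89 Paraclone replicate 2, with values from -0.56 to -0.77 and adjusted p from 0.0608 to 0.0888. The pseudogene SUZ12P1, whose sequence is similar to part of SUZ12, stood at 3.60 to 6.65 TPM in the group means and was itself higher in Panc1 Holoclone than in Paraclone cells (0.45, adjusted p = 0.0454). How reads were divided between the 2 loci was not tested.

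EED, which binds methylated H3K27 and stimulates EZH2, was higher in Panc89. It stood at 34.5, 35.9 and 36.4 TPM in parental Panc89, 60.3, 39.4 and 32.0 TPM in Panc89 Holoclone and 30.4, 47.8 and 32.4 TPM in Panc89 Paraclone cells. In Panc1 it stood at 19.6, 27.2 and 18.3 TPM in parental, 23.5, 27.4 and 25.8 TPM in Holoclone and 30.6, 22.3 and 19.6 TPM in Paraclone cells, and only the Paraclone groups overlapped. The differences were 0.71 (SE 0.226, adjusted p = 0.012) among parental, 0.71 (adjusted p = 0.0117) among Holoclone and 0.58 (adjusted p = 0.0354) among Paraclone cells. The parental call was lost without Panc1 parental replicate 3 (0.60, adjusted p = 0.0527) and the Holoclone call without Panc89 Holoclone replicate 1 (0.46, adjusted p = 0.0716). The Paraclone call was lost without a filter on low values (adjusted p = 0.064), with only the groups compared (adjusted p = 0.0802), and without Panc1 Paraclone replicate 2 or 3 or Panc89 Paraclone replicate 2, with values from 0.39 to 0.54 and adjusted p from 0.0927 to 0.163. Holoclone and Paraclone cells differed by 0.10 (adjusted p = 0.791) in Panc1 and 0.23 (adjusted p = 0.479) in Panc89.

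Ordered by group means, DNMT1 and UHRF1 ran from the Panc1 Holoclone cells (54.8 and 30.2 TPM) to the Panc89 Paraclone cells (33.8 and 15.4 TPM), and each group overlapped with the next. DNMT3A ran from parental Panc1 (16.3 ± 2.70 TPM, SD) to Panc1 Paraclone cells (8.85 ± 1.43 TPM), with no overlap only between Panc89 Paraclone and parental Panc89 cells among neighbours. The order of TET2 ended with the 3 Panc1 groups, Holoclone (4.05 ± 0.525 TPM), parental (2.83 ± 0.397 TPM) and Paraclone (1.61 ± 0.257 TPM), which did not overlap with each other. For EED the 3 Panc89 groups came first, and the parental Panc89 cells (35.6 ± 0.951 TPM) did not overlap with the next, the Panc1 Holoclone cells (25.6 ± 1.99 TPM). EZH2 was the reverse, with 3 Panc1 groups first, and the parental Panc1 cells (37.0 ± 6.31 TPM) did not overlap with the next, the Panc1 Paraclone cells (21.1 ± 8.16 TPM). DNMT3B also began with the 3 Panc89 groups, and only the last neighbours, parental Panc1 (3.06 ± 0.877 TPM) and Panc1 Paraclone cells (1.93 ± 0.450 TPM), did not overlap. TET1 ran from Panc1 Holoclone (1.26 ± 0.287 TPM) and parental Panc1 cells (1.01 ± 0.188 TPM), which did not overlap with the next, the parental Panc89 cells (0.374 ± 0.0340 TPM), down to the Panc1 Paraclone cells (0.0942 ± 0.0116 TPM). The Holoclone cells of both lines came first for TET3, and the Panc89 Holoclone cells (6.64 ± 1.02 TPM) did not overlap with the next, the Panc89 Paraclone cells (4.52 ± 0.764 TPM). SUZ12 had the Panc1 Holoclone cells first (60.0 ± 6.40 TPM), apart from the parental Panc89 cells (35.7 ± 3.27 TPM), and the other groups overlapped.

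For the 6 genes whose group means spanned at least 1 log2 unit, the genes with the most similar profile over the 18 libraries were taken by the root mean square difference of centred log2 values. For UHRF1 these were PCNA, the sliding clamp of DNA replication (0.181 log2 units), GINS1, a subunit of the replicative helicase (0.223), and ZNF367 (0.246). For EZH2 they were DTYMK, a kinase of thymidylate (0.21), ANAPC15 (0.225) and TOPBP1 (0.245). The closest to TET1 were PPIG (0.144), GLOD4 (0.144) and DNAJC13 (0.166), and to TET2 NFKB1 (0.194), ATP6V1B2 (0.195) and PATL1 (0.202). TET3 lay closest to RAB21 (0.167), MED13 (0.175) and E2F4 (0.175), and DNMT3B to KLHDC3 (0.186), RBM23 (0.187) and MRPL51 (0.196).

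The partners of these enzymes were read in 6 lists, of which 66 genes were tested. In Panc1, 27 of the 66 were higher and 1 was lower in Holoclone than in Paraclone cells, with a median of 0.40 against 0.19 over all genes, of which 27.4% were higher and 9.97% lower. The higher genes included 8 of 12 DNA methylation cofactors and readers, 9 of 20 PRC1 subunits, 5 of 5 erasers of the Polycomb marks, 3 of 10 TET partners and 2 of 10 PRC2 partners. These counts depended on the scaling, with 13 higher and 5 lower of the 66 under upper quartile scaling and 10 higher and 5 lower under median-of-ratios scaling. In the same order of scalings, 1 and 1 of the 5 erasers and 3 and 1 of the 12 cofactors and readers were higher. Of the PRC1 subunits 5 and 5 were higher, of the TET partners 2 and 2, and of the PRC2 partners 2 and 1. Over all 16093 genes, 2643 were higher and 2512 lower under the first scaling and 2440 and 2672 under the second. When the 4 libraries of high S phase level were left out, 37 were higher and 3 lower, where 49.3% of all genes passed in either direction. In Panc89, 11 were higher and 9 lower, where 22.4% of all genes were higher and 13.3% lower. The median was 0.08 against 0.09 over all genes. The change differed between the lines for 29 genes, 6 higher and 23 lower in Panc89, against 14.8% and 20.4% of all genes. Under upper quartile scaling 7 were higher and 14 lower, where 2847 of all 16093 genes were higher and 2683 lower. Under median-of-ratios scaling they were 7 and 15, where 2873 of all genes were higher and 2704 lower. Against parental cells, the Panc1 Holoclone cells had 4 higher and 1 lower, where 5.87% of all genes were higher and 5.06% lower. The Panc1 Paraclone cells had 1 higher and 17 lower, where 7.31% of all genes were higher and 21.3% lower. Under upper quartile scaling these Paraclone counts were 7 and 10, and under median-of-ratios scaling 7 and 7. The directions over all genes were not read under these scalings, so this move is not read as particular to the partners. In Panc89 the Holoclone cells had 8 and 8 (16.1% and 8.61% of all genes) and the Paraclone cells 6 and 9 (9.37% and 10%).

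Among these partners, PCGF5, a subunit of variant PRC1, was higher in Panc1 Holoclone than in Paraclone cells by 1.78 (adjusted p = 1.01e-05), as was IDH1, which makes the 2-oxoglutarate that TET enzymes need, by 1.55 (adjusted p = 0.000287). NNMT, which consumes the methyl donor S-adenosylmethionine, was lower in Holoclone cells of both lines, at 4.01 ± 0.579 against 15.8 ± 7.39 TPM in Panc1 (-1.66, adjusted p = 0.000598) and 3.85 ± 0.676 against 221 ± 38.4 TPM in Panc89 (-5.51, adjusted p = 3.12e-09). In Panc89 the PRC1 subunit CBX6 was higher in Holoclone cells, at 53.4 ± 5.71 against 4.19 ± 0.842 TPM (3.40, adjusted p = 2.61e-10). The DNA damage gene GADD45A, linked to demethylation, was higher as well (1.82, adjusted p = 0.00251), and the methyl-CG reader ZBTB38 was lower, at 13.9 ± 0.727 against 93.3 ± 13.0 TPM (-2.66, adjusted p = 2.12e-09). The difference between the lines was 3.30 for CBX6, 2.68 for GADD45A, -3.85 for NNMT and -3.10 for ZBTB38, with adjusted p of at most 0.00198. The signs given for PCGF5, IDH1, NNMT, CBX6, GADD45A and ZBTB38 were the same under both scalings.

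Several paralogs and partners were read for their role. BMI1, a core PRC1 subunit, was higher in Holoclone than in Paraclone cells of Panc1 (0.90, adjusted p = 0.000939) and lower in Panc89 (-0.52, adjusted p = 0.0339), and the lines differed by -1.42 (adjusted p = 0.000448). UHRF2, the paralog of UHRF1, was higher in Panc1 (0.61, adjusted p = 0.00245) and lower in Panc89 (-0.67, adjusted p = 0.00123), with a difference of -1.28 (adjusted p = 0.000107). For both genes the signs were kept under both scalings, where the Panc1 call of UHRF2 was lost under median-of-ratios scaling (adjusted p = 0.0598), and the Panc89 call of BMI1 was lost without the 4 libraries of high S phase level (adjusted p = 0.0642). The H3K27 demethylase KDM6A was higher in Holoclone cells of both lines, by 0.57 (adjusted p = 0.0128) and 0.60 (adjusted p = 0.01), and its paralog KDM6B in Panc1 by 0.89 (adjusted p = 0.0253). The Panc1 calls were lost under both scalings for KDM6A (0.34 and 0.32), for KDM6B (0.66 and 0.63) and for RNF2, the PRC1 ubiquitin ligase (0.53, adjusted p = 0.00143, against 0.29 and 0.26). HELLS, a chromatin remodeler needed for DNA methylation, was higher in Panc89 Holoclone than in Paraclone cells by 1.70 (SE 0.596, adjusted p = 0.0366). This SE lay between those of DNMT1 and UHRF1, and the part of the cell cycle in the HELLS value was not tested. JARID2, a PRC2 accessory subunit, was higher in Panc89 among parental (1.11), Holoclone (1.33) and Paraclone cells (1.69), with adjusted p of at most 3.49e-06, whereas EZH1, the paralog of EZH2, was lower in Panc89 among Holoclone cells (-0.68, adjusted p = 0.0121). DNMT3L, a cofactor of the de novo enzymes, averaged at most 0.0641 TPM in a group and was not tested.

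The partners with the largest changes between the lines included enzymes of methyl donor and 2-oxoglutarate metabolism. Among parental cells NNMT was higher in Panc89 by 5.28 (adjusted p = 5.47e-10) and the serine hydroxymethyltransferase SHMT2 by 2.72 (adjusted p = 1.73e-09), while IDH2, the mitochondrial counterpart of IDH1, was lower (-2.33, adjusted p = 3.63e-06). IDH2 was also lower among Holoclone (-3.09, adjusted p = 1.45e-07) and Paraclone cells (-2.28, adjusted p = 5.28e-06). The PRC2 accessory subunit AEBP2 was higher in Panc89 among Holoclone cells (1.68, adjusted p = 8.05e-08), and CBX6 was lower among Paraclone cells (-3.48, adjusted p = 1.54e-11). Among Paraclone cells NNMT (3.80, adjusted p = 3.04e-08) and IDH1 (2.12, adjusted p = 4.2e-06) were higher in Panc89. Among Holoclone cells, in contrast, the mean log2(TPM + 1) of NNMT was 2.27 in Panc89 and 2.32 in Panc1. CXXC5, a CG-binding partner of TET2, was lower in Panc89 among Holoclone cells (-2.21, adjusted p = 5.19e-06), and GADD45A among parental cells (-1.89, adjusted p = 0.00073).

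Against parental cells, the PRC1 subunit PCGF2 (0.86, adjusted p = 0.000105) and the PRC2 accessory subunit EPOP (0.82, adjusted p = 0.000365) were higher in Panc1 Holoclone cells, and NNMT was lower (-1.09, adjusted p = 0.0332). In Panc1 Paraclone cells PCGF2 was higher (0.39, adjusted p = 0.0155), while PCGF5 (-1.82, adjusted p = 1.37e-05) and IDH1 (-1.59, adjusted p = 0.000383) were lower. In Panc89 Holoclone cells GADD45A (2.31, adjusted p = 0.000607) and CBX6 (1.70, adjusted p = 9.47e-07) were higher, and NNMT (-6.42, adjusted p = 1.15e-09) and CXXC5 (-1.96, adjusted p = 0.000115) were lower. In Panc89 Paraclone cells ZBTB38 (1.20, adjusted p = 3.06e-05) and the PRC2 accessory subunit PHF1 (0.72, adjusted p = 0.0184) were higher, and CBX6 (-1.70, adjusted p = 1.59e-06) and CXXC5 (-1.44, adjusted p = 0.00198) were lower.

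Germline genes, many of which are known to be silenced by promoter methylation in body cells, were read as a list of 25. In each Panc89 group 7 of the 25 had at least 1 TPM in all 3 libraries, namely GTSF1, HORMAD1, STK31, MAGEA1, MAGEA3, MAGEA4 and MAGEB2, and in each Panc1 group 0 of the 25 did. In parental cells GTSF1, a factor of piRNA silencing, stood at 143 ± 4.71 TPM in Panc89 and 0.186 ± 0.0911 TPM in Panc1. HORMAD1, a protein of meiotic chromosomes, stood at 7.86 ± 1.39 TPM in Panc89 and was listed at 0 in parental Panc1. MAGEA4 stood at 312 ± 1.79 TPM in Panc89 and 1.31 ± 0.440 TPM in Panc1, though reads of MAGEA genes, which are similar in sequence, may be divided among them. These 7 genes passed the filter only through Panc89, so that no test of the list is given.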

How the data were processed

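The samples were 18 RNA-seq libraries of Panc1 and Panc89 cells, in 6 groups of 3 taken from the deposited labels, and 0 columns were left without a sample. Poly(A) RNA was made into stranded libraries by the authors and read from both ends. Transcripts were quantified with kallisto 0.46.1 (submitters' processing notes) against Ensembl GRCh38, and tximport gave a scaled TPM per gene. The deposited table holds these as log2(TPM + 1), 1 row per gene symbol. On the linear scale a library summed to between 985339 and 988066 TPM. TPM keep no library total, so depth and counting error are unknown and no interval or floor is given.

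Groups were compared with limma 3.58.1 (lmFit and eBayes with trend) in R 4.3.3 on all 18 libraries, with a mean per group, for the 16093 genes that reached 1 TPM in 3 or more libraries. P-values are two-sided, adjusted by Benjamini-Hochberg over all tested genes, with a threshold of 0.05. They measure the spread between passages. A log2 fold change is on the log2(TPM + 1) scale and understates the change of low genes. The median of all genes moved by -0.18 in parental Panc89 against parental Panc1 cells, -0.11 between Holoclone cells, 0.19 in Panc1 Holoclone against Paraclone cells, -0.17 in Panc1 Paraclone against parental cells and -0.11 in the difference between the lines.

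The members and all gene lists were chosen with earlier results of these data known. Partners are named when they had the 2 largest positive or negative called changes of a comparison, or by role. The genes of most similar profile were taken from all tested genes. The fit was tested on simulated data with known changes. Alternatives were a pseudocount of 0.1, no filter, at least 5 TPM, upper quartile and median-of-ratios scaling, no variance trend, a replicate block, only the groups compared, each library left out, and, chosen after seeing the data, 4 libraries left out. Promoters were read from RefSeq, where 10 of 10 genes matched, and positions from GENCODE 44.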

Additional observations from a re-analysis of the deposited data

Results flagged for a closer look

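For 4 genes the change between Holoclone and Paraclone cells differed between Panc89 and Panc1, as tested with the interaction term of the limma fit. The difference was -0.87 (adjusted p = 0.0137) for DNMT3A, -1.11 (adjusted p = 0.000709) for TET1, -0.78 (adjusted p = 0.0108) for TET3 and -0.78 (adjusted p = 0.0326) for SUZ12. In Panc1 the Holoclone cells were higher than the Paraclone cells in 3 of 3 libraries for each of these genes. The groups therefore did not overlap, which also held for 51.3% of all genes. Over all genes the difference between the lines passed for 35.1%, with 14.8% higher and 20.4% lower in Panc89. Passing this test is thus not read as particular to these genes. With no filter on low values, which TET1 passed only through Panc1 libraries, its adjusted p was 0.000481. The SUZ12 difference lost its call without that filter (adjusted p = 0.055), with only the groups compared (adjusted p = 0.0747), with a replicate block (adjusted p = 0.0702) and without any 1 of 7 libraries (adjusted p from 0.0608 to 0.0888). Without the 4 libraries of high S phase level the differences were -0.92 (adjusted p = 0.00726) for DNMT3A, -1.22 (adjusted p = 0.000574) for TET1, -0.87 (adjusted p = 0.00935) for TET3 and -0.89 (adjusted p = 0.000764) for SUZ12, with p-values that are too small because the spread was narrowed. None of the 4 was a Panc1 Holoclone library. The Panc1 change of SUZ12, which was high in the omitted Panc1 Paraclone library, was therefore bound to grow. Each clone type is 1 clone per line, so that a difference between lines and a difference between clones cannot be told apart.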

How the results depend on the processing

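Of 34 called member results, all 34 kept their sign under every alternative and 17 stayed past the threshold under every alternative. Among their values under alternatives, 462 stayed past the threshold and 67 did not. Among results not called, 21 values passed it and 51 turned sign. Results not called against parental cells were left out here, so these last counts do not cover all results not called. Depth is unknown and limits low genes such as TET1.

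Counts of the 10 genes moved under upper quartile scaling to 1 in Panc89 Holoclone against Paraclone, 2 in Panc1 Paraclone against parental and 1 in Panc89 Paraclone against parental cells, and the first 2 were the same under median-of-ratios scaling. In Panc89 Holoclone against Paraclone cells, 3067 of all genes were higher and 2779 lower under the first scaling, and 2915 and 2992 under the second. Where no count over all genes stands beside a count in this paragraph, its move is not read as particular to the 10 genes. With only the groups compared, the counts were 0 in Panc89 Holoclone against Paraclone (3377 of all genes), 1 in Panc1 Holoclone against parental and 0 in Panc89 Holoclone against parental cells. Without the 4 libraries of high S phase level, they were 9 (7932 of all genes) in Panc1 Holoclone against Paraclone, 5 (2969) in Panc1 Holoclone, 3 (6157) in Panc89 Holoclone and 6 (6245) in Panc89 Paraclone against parental cells. With a replicate block within each line, the counts between lines were 2 among parental, 3 among Holoclone and 2 among Paraclone cells, and SUZ12 was 0.0437 among Paraclone cells; with this block EZH2 among Holoclone cells had an adjusted p of 0.11 and the SUZ12 difference between the lines 0.0702. Deviations of same-numbered libraries correlated between -0.318 and 0.19, above 0.1 in 3 of 18 pairs, so the numbers do not pair the libraries, and a call lost with the block is not read as a weaker effect.

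Leaving out each library in turn gave 4 to 5, 5 to 6 and 3 to 4 of the 10 genes between lines (parental, Holoclone, Paraclone), 4 to 5 and 1 to 2 in Holoclone against Paraclone of Panc1 and Panc89, 3 to 4 for the difference between lines, and against parental cells 1 to 2 and 2 to 4 for Panc1 Holoclone and Paraclone and 0 to 1 and 0 to 2 for Panc89. Over all genes the ranges were 9863 to 10241, 9756 to 10559, 8915 to 9861, 4763 to 5808, 4549 to 6600, 4806 to 6072, 1061 to 1571, 3140 to 4323, 2972 to 4319 and 2116 to 4249 in the same order.

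Values that turned sign were all of results not called. Those of results not called against parental cells were not read and are not listed. Between parental cells, DNMT1 was 0.0778 and 0.16, UHRF1 0.11 and 0.19 and TET3 0.0431 and 0.11 under the upper quartile and median-of-ratios scalings. In the same order EED was -0.14 and -0.16 in Panc1 Holoclone against Paraclone cells, and in Panc89 EZH2 was -0.0227 and -0.0515 and SUZ12 0 and -0.0298. SUZ12 among Paraclone cells was 0.0264 under median-of-ratios scaling. Without the 4 libraries, DNMT1 was 0.36 and UHRF1 0.49 between parental cells, and the difference between lines was -0.30 for DNMT1 and -0.10 for EED. Leaving out 1 library gave, between parental cells, -0.37 to 0.36 for DNMT1, -0.32 to 0.49 for UHRF1 and -0.15 to 0.0144 for TET3. DNMT1 ran from -0.67 to 0.0201 among Holoclone and from -0.78 to 0.0436 among Paraclone cells, where SUZ12 ran from -0.24 to 0.12. EED ran from -0.0341 to 0.28 in Panc1 Holoclone against Paraclone cells. In Panc89 the ranges were -0.46 to 1.04 for UHRF1, -0.29 to 0.58 for EZH2, -0.0773 to 0.32 for SUZ12, -0.023 to 0.42 for EED and -0.24 to 0.0049 for TET1. For the difference between lines they were -0.34 to 0.48 for DNMT1, -1.06 to 0.45 for UHRF1, -0.30 to 0.11 for DNMT3B and -0.12 to 0.32 for EED. The cause was not tested.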
